A study of Mus musculus with 6 samples.

Results

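Genes of the clade A serpin cluster, a family of secreted protease inhibitors and their relatives, were followed liver by liver in female F1 mice: Serpina1a, Serpina1b, Serpina1c, Serpina1d, Serpina1e, Serpina3k, Serpina3m, Serpina3n, Serpina6 and Serpina10. They were picked out by gene symbol and are 10 of the 17624 genes in the table of the series. All 10 matched 1 row each and passed the filter of an average of 1 RPKM or more (RPKM divides the reads of a gene by its length and by the size of the library), as did 6448 genes in all. Both groups were C57BL/6 females that had themselves not been exposed to inorganic arsenic (iAs). The 3 iAsF1-F mice were sired by males that had drunk iAs in water before mating with unexposed females, and the 3 conF1-F mice by unexposed males. The labels say the livers were taken at feeding status, whereas the legend of the study's heat map says refeeding, and no age is given in the labels. The livers are described as biological triplicates of an RNA-seq run that was performed once. Nothing ties a liver to a litter, so whether the livers are independent cannot be checked. The p-values of limma set the difference between the groups against the spread between these livers.

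Serpins trap a protease by offering it a flexible bait, the reactive centre loop. The protease cuts the loop, the serpin folds over, and both are left locked together. Hepatocytes secrete these proteins into plasma in large amounts. SERPINA1 (alpha-1 antitrypsin) protects tissue from neutrophil elastase, and the mouse carries several copies of it. SERPINA3 (alpha-1 antichymotrypsin) inhibits chymotrypsin-like proteases and is likewise multiplied in the mouse. Serpina6 encodes corticosteroid-binding globulin, a serpin that carries glucocorticoids and does not inhibit proteases, and Serpina10 encodes the protein Z-dependent inhibitor of coagulation factor Xa.

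In GENCODE annotation of GRCm38 all 10 genes lie on chromosome 12. Serpina10 (chr12:103614786-103631444), Serpina6 (chr12:103646630-103657212), Serpina1b (chr12:103728156-103830373), Serpina1d (chr12:103763594-103773592), Serpina1a (chr12:103853589-103863562), Serpina1c (chr12:103894926-103904887) and Serpina1e (chr12:103946931-103958975) are on the minus strand. Serpina3k (chr12:104338486-104346144), Serpina3m (chr12:104338486-104394257) and Serpina3n (chr12:104406729-104414329) are on the plus strand. The annotated span of Serpina1b contains Serpina1d, and Serpina3k and Serpina3m begin at the same base.

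The coding stretch of the reactive centre loop is shown because it is where the paralogs differ in the bait they present. Each stretch is exonic coding sequence of GRCm38, read 5′ to 3′ on the strand of its gene, and capitals mark the 18 of 81 positions at which the 5 Serpina1 copies are not all equal.
Serpina1a: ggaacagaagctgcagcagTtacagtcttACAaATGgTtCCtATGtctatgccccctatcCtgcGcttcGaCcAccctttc
Serpina1b: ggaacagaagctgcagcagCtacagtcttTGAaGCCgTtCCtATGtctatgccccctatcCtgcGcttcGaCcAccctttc
Serpina1c: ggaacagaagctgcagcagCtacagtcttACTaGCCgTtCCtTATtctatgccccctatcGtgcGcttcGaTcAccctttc
Serpina1d: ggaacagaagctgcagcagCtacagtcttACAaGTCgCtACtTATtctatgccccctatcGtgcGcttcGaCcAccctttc
Serpina1e: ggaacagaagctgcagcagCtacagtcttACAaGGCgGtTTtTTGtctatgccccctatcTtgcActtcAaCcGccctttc
Their positions are chr12:103853750-103853830 (Serpina1a), chr12:103728317-103728397 (Serpina1b), chr12:103895087-103895167 (Serpina1c), chr12:103763755-103763835 (Serpina1d), chr12:103947093-103947173 (Serpina1e). Between any pair of copies, 5 to 12 of the 81 bases differed, with the fewest between Serpina1c and Serpina1d and the most between Serpina1e and both Serpina1a and Serpina1c. Over the whole coding sequence the 10 pairs of Serpina1 copies were 96.3% to 98.5% identical, with Serpina1a and Serpina1c the closest pair. The Serpina3 loops had diverged further, and no base is capitalised in them because their lengths differ.
Serpina3k: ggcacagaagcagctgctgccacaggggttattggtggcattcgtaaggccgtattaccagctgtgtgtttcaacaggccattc
Serpina3m: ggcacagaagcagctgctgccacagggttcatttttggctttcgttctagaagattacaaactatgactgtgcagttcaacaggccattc
Serpina3n: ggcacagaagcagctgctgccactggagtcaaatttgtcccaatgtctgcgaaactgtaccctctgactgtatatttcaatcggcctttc
Their positions are chr12:104345269-104345352 (Serpina3k), chr12:104393769-104393858 (Serpina3m), chr12:104413448-104413537 (Serpina3n). The loops of Serpina3k and Serpina3m were 73.3% identical and those of Serpina3m and Serpina3n 68.9%, whereas the 3 whole coding sequences were 82.7% to 91.0% identical.

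Such likeness bears on how reads were divided between copies. Of all 50-base windows in the Serpina1a transcript, 80.9% also occurred in another gene, against 74.2% for Serpina1c, 50.9% for Serpina1d, 47.1% for Serpina1b and 37.9% for Serpina1e. The shares were 19.1% for Serpina3m, 14.0% for Serpina3k, 6.90% for Serpina3n, 1.88% for Serpina10 and 0% for Serpina6. The level of a single Serpina1 copy is therefore uncertain, and sums over copies are given beside it. Serpina1a, Serpina1c, Serpina3k, Serpina3n and Serpina6 had a value above 0 in all 6 livers. Serpina1b, Serpina1d and Serpina3m were listed at 0 in 1 liver each, Serpina1e in 3 and Serpina10 in 4.

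**Figure D1:**
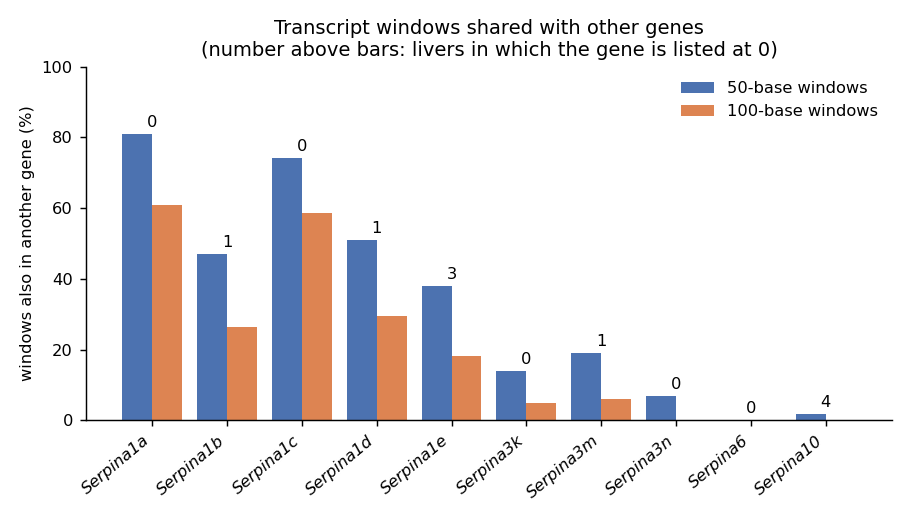
Share of all windows of 50 or 100 bases along each member's transcript (y axis, percent) that also occur in a transcript of another gene, for the 10 members (x axis). Numbers above the bars give the livers, of 6, in which the gene is listed at 0. The shares at 50 bases run from 0% for Serpina6 to 80.9% for Serpina1a, and the livers at 0 from none to 4 for Serpina10.

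Values of 0 have to be read first, because they decide several comparisons. Where several copies of a family were at 0 in 1 liver, the listed values lay far below those of other livers. At the mean length of a Serpina1 transcript, 3 reads would correspond to 0.134 to 0.199 RPKM. The same Serpina1 copies stood at 252 to 1613 RPKM in other livers, and the reason for the 0s was not tested. In conF1-F replicate 3, Serpina1b, Serpina1d, Serpina1e, Serpina3m and Serpina10 were listed at 0. Serpina1e and Serpina10 were at 0 in conF1-F replicate 2 and iAsF1-F replicate 1, and Serpina10 also in iAsF1-F replicate 2. No member was at 0 in conF1-F replicate 1 or iAsF1-F replicate 3. Of the 528 genes averaging 50 RPKM or more, 21 (3.98%) were listed at 0 in some liver, and 4 of the 9 members among them were. In conF1-F replicate 3, 4 of the 7 such genes at 0 were members. A 0 is therefore reported as listed, and a fit that keeps it gives no measure of the size of a difference.

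The depth estimated from the smallest values was 11100000 to 16500000 reads per liver. Hepatocyte markers were at 0 in no liver, and their summed level was 40692 to 47756 RPKM in conF1-F and 43144 to 48714 RPKM in iAsF1-F. Of 12 such markers tested, 10 had a log2 fold change above 0, with a median of 0.14. Kupffer cell markers summed to 92.1 to 172 RPKM in conF1-F and 51.2 to 132 RPKM in iAsF1-F, and erythroid markers to 372 to 647 RPKM and 237 to 367 RPKM. Of 6 Kupffer cell markers tested 1 had a log2 fold change above 0, and of 4 erythroid markers 1. However, 3 of the 6 Kupffer cell markers were listed at 0 in some liver. Vsig4 was at 0 in iAsF1-F replicates 1 and 3 and at 16.8 to 29.6 RPKM elsewhere. The Kupffer cell sums and count therefore rest partly on 0s. All 13 mitochondrially encoded genes were above 0, and their sum was 38311 to 40360 RPKM in conF1-F and 41108 to 44284 RPKM in iAsF1-F. The part of these differences in the results on serpins was not tested. In whole liver, fewer cells of a type and less RNA per cell cannot be told apart.

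Over all 6448 tested genes, limma with Benjamini-Hochberg adjustment called 16 genes (0.248%), 8 higher and 8 lower in iAsF1-F, and none of the 10 members was among them. At an unadjusted p under 0.05, where 5.12% of all tested genes lay, 1 of 10 members was found, Serpina1c. The 3 iAsF1-F values lay above all 3 conF1-F values for 3 of 10 members, Serpina1a, Serpina1c and Serpina1d, and the reverse was seen for none. Among all tested genes, 5.83% were separated in that direction and 5.71% in the other. For Serpina1d the separation included a conF1-F liver at 0, though its other conF1-F values were also the lowest. The log2 fold change was above 0 for 8 of 10 members, against 49.7% of all tested genes, but 5 of the 10 fits hold a 0. With 0s treated as missing it was above 0 for 7 of 9 members, against 48.4% of all genes then tested. Among the 5 members never listed at 0 it was above 0 for 4, with a median of 0.16. Of all tested genes never listed at 0, 49.1% were above 0.

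**Figure D2:**
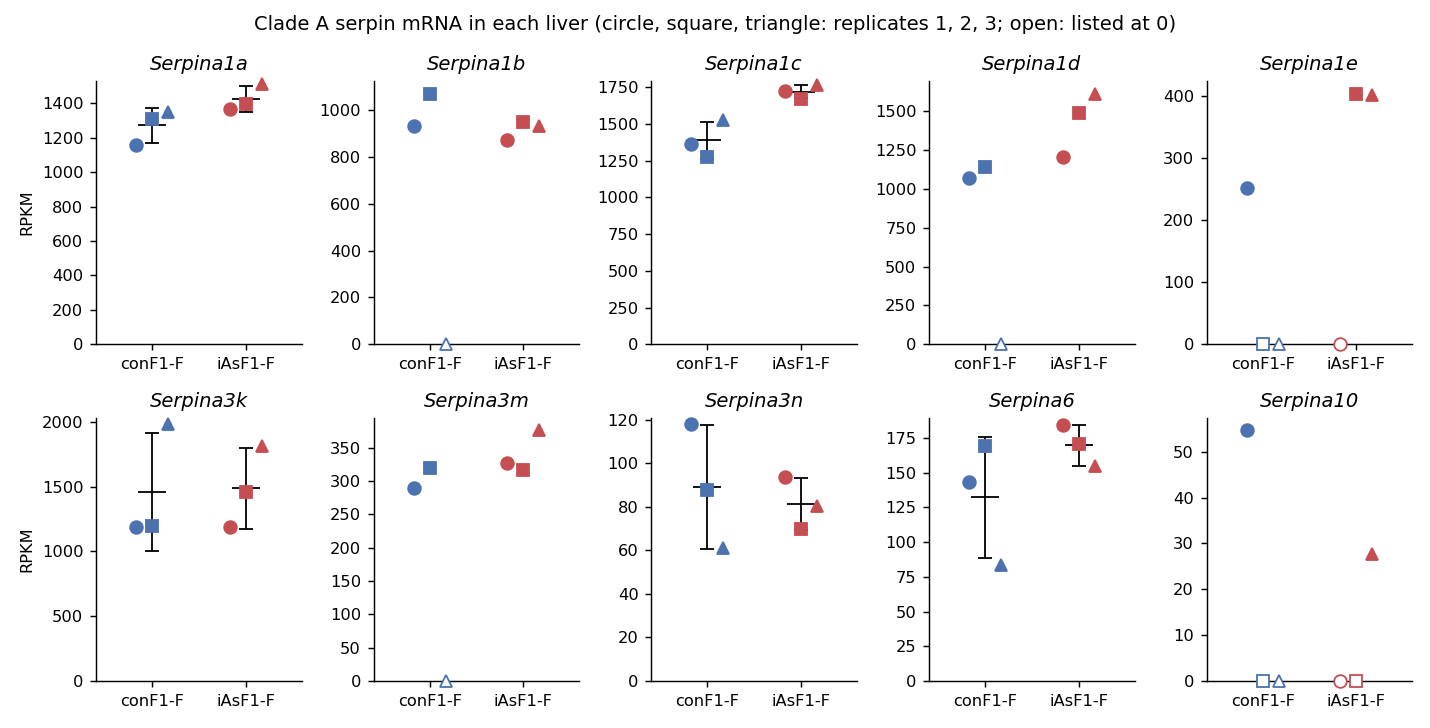
RPKM (y axis, from 0) of the 10 members in the 3 conF1-F livers (blue) and the 3 iAsF1-F livers (red), with the mean and SD as a black cross and bars where no liver is listed at 0. Open symbols mark values listed at 0. The 3 iAsF1-F values of Serpina1c (1672 to 1764 RPKM) lie above the 3 conF1-F values (1278 to 1527 RPKM), whereas Serpina3k and Serpina3n overlap.

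Serpina1c (ENSMUSG00000079015), an alpha-1 antitrypsin copy, had the highest mean of the members over the 6 livers and ranked 27 among all genes, although in conF1-F the mean of Serpina3k was higher. It stood at 1365, 1278 and 1527 RPKM in conF1-F replicates 1 to 3 and at 1727, 1672 and 1764 RPKM in iAsF1-F replicates 1 to 3. All iAsF1-F livers were above all conF1-F livers. The means were 1390 ± 126 and 1721 ± 46.3 RPKM (SD, n = 3), a 1.24-fold difference with a log2 fold change of 0.31 (SE 0.08, 95% interval 0.12 to 0.51). It did not pass over all genes (adjusted p = 0.774 from limma), and the exact two-sided permutation test gave p = 0.1, the smallest that 3 against 3 allows.

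Serpina1a (ENSMUSG00000066366), its closest relative in coding sequence, stood at 1160, 1307 and 1351 RPKM in conF1-F against 1367, 1396 and 1513 RPKM in iAsF1-F. The groups did not overlap, but the highest conF1-F and the lowest iAsF1-F liver nearly met. The means of 1273 ± 100 and 1425 ± 77.5 RPKM (SD, n = 3) differed 1.12-fold, with a log2 fold change of 0.16 (SE 0.08, 95% interval −0.04 to 0.36, adjusted p = 0.877 from limma). Since reads may move between these copies, their sum was also taken. It was 2525, 2586 and 2878 RPKM in conF1-F and 3093, 3068 and 3277 RPKM in iAsF1-F, a ratio of means of 1.18. The sum, which contains no 0, was also separated between the groups.

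The hepatocyte marker Ttr (transthyretin, a plasma carrier of thyroid hormone) had a log2 fold change of 0.29 (unadjusted p = 0.0244, adjusted p = 0.877, limma). The other tested hepatocyte markers had log2 fold changes of 1.05 for Pck1, 0.76 for Apoc3, 0.20 for Apob and 0.16 for Cps1. Those of Hnf4a, Apoa2 and Apoa1 were 0.15, 0.13 and 0.11, and those of Alb and Ahsg 0.02 and 0.01. Fgb was at −0.12 and Cyp2e1 at −0.22 (unadjusted p = 0.0371 from limma for the last). For Apoc3 the unadjusted p was 0.00682 (adjusted p = 0.698, limma), and all iAsF1-F livers were above all conF1-F livers. Relative to Ttr, Serpina1c was 0.650, 0.496 and 0.623 in conF1-F and 0.606, 0.603 and 0.577 in iAsF1-F, so that the groups overlapped. Serpina1a relative to Ttr was 0.553, 0.508 and 0.551 in conF1-F and 0.479, 0.503 and 0.495 in iAsF1-F. These groups were separated, with iAsF1-F the lower. As a share of the summed hepatocyte markers, Serpina1c was 3.35%, 2.68% and 3.33% in conF1-F and 4.003%, 3.59% and 3.62% in iAsF1-F, and the groups were separated. Most of this sum was Alb, at 34391 of 47756 RPKM in conF1-F replicate 2 and 34763 of 48714 RPKM in iAsF1-F replicate 3. Serpina1a took 2.85%, 2.74% and 2.95% of the same sum in conF1-F and 3.17%, 2.99% and 3.11% in iAsF1-F. These ratios were chosen after the values were seen, and the part of hepatocyte content in the differences was not tested.

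Serpina1d (ENSMUSG00000071177), the copy with the loop nearest to that of Serpina1c, stood at 1068, 1142 and 0 RPKM in conF1-F against 1206, 1486 and 1613 RPKM in iAsF1-F. The livers above 0 did not overlap. Their means were 1105 RPKM over 2 conF1-F livers and 1435 RPKM over 3 iAsF1-F livers, a ratio of 1.30. With the 0 treated as missing, limma gave a log2 fold change of 0.37 (SE 0.14 and adjusted p = 0.866).

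Serpina1b (ENSMUSG00000071178) went the other way among the livers above 0. It stood at 933, 1071 and 0 RPKM in conF1-F against 873, 951 and 934 RPKM in iAsF1-F, and these overlap. The means of the livers above 0 were 1002 and 919 RPKM. Limma gave a log2 fold change of −0.12 (SE 0.09 and adjusted p = 0.879) with the 0 treated as missing. With it kept the sign was the opposite, so the direction depended on 1 value. Relative to Serpina1a, Serpina1b was 0.804 and 0.819 in the conF1-F livers above 0 and 0.639, 0.681 and 0.617 in iAsF1-F. Relative to Serpina1a, Serpina1c was 1.18, 0.978 and 1.13 in conF1-F and 1.26, 1.20 and 1.17 in iAsF1-F, which overlap.

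Serpina1e (ENSMUSG00000072849) was the least abundant copy. It stood at 252, 0 and 0 RPKM in conF1-F against 0, 404 and 401 RPKM in iAsF1-F. Only 3 livers therefore had a value, and both iAsF1-F values were above the only conF1-F value. With 1 conF1-F liver above 0 the spread of that group is unknown, and no test is given.

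Added over Serpina1a to Serpina1e, the level was 4777, 4799 and 2878 RPKM in conF1-F and 5172, 5909 and 6225 RPKM in iAsF1-F. Every iAsF1-F sum was above every conF1-F sum, and the ratio of means was 1.39. The sum of conF1-F replicate 3 lacks 3 copies listed at 0, and without this liver the ratio was 1.20. That ratio still holds 0s, since Serpina1e was at 0 in conF1-F replicate 2 and iAsF1-F replicate 1. All 10 members together took 2.15%, 2.22% and 1.69% of the summed RPKM of all genes in conF1-F and 2.36%, 2.61% and 2.93% in iAsF1-F.

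**Figure D3:**
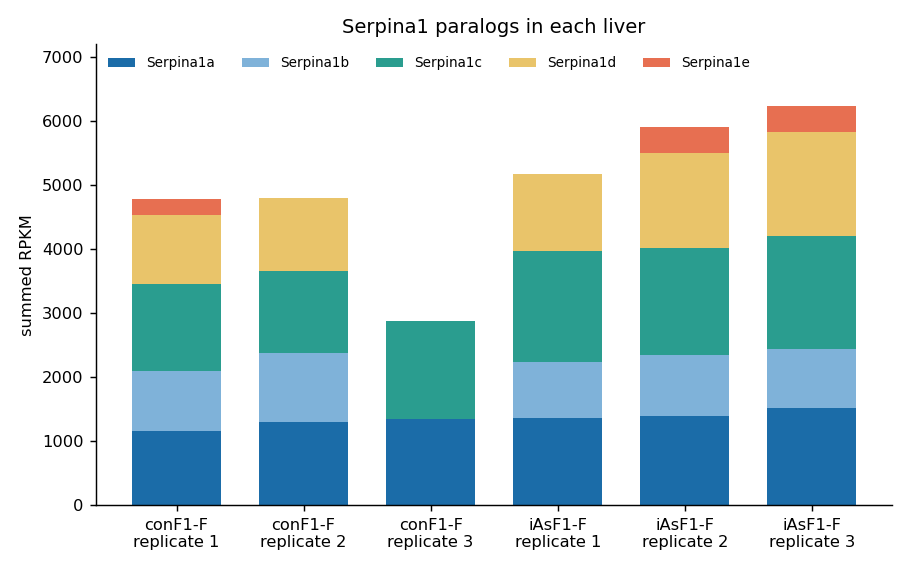
Stacked RPKM (y axis, from 0) of Serpina1a to Serpina1e in each of the 6 livers (x axis). The bar of conF1-F replicate 3 holds only Serpina1a and Serpina1c (2878 RPKM), since the other copies are listed at 0 there, and the 3 iAsF1-F bars reach 5172 to 6225 RPKM.

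The Serpina3 genes showed no such separation. Serpina3k (ENSMUSG00000058207), a kallikrein-binding serpin, stood at 1190, 1200 and 1984 RPKM in conF1-F against 1188, 1462 and 1814 RPKM in iAsF1-F. The groups overlapped over most of their range, and conF1-F replicate 3 was the highest of all livers. The means were 1458 ± 455 and 1488 ± 314 RPKM (SD, n = 3), with a log2 fold change of 0.05 (SE 0.26, 95% interval −0.61 to 0.71, adjusted p = 0.999 from limma). With 1 liver left out the log2 fold change ran from −0.10, without iAsF1-F replicate 3, to 0.29, without conF1-F replicate 3. The interval over all livers is wide enough to hold differences larger than that of Serpina1c.

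Serpina3m (ENSMUSG00000079012), which begins at the same base as Serpina3k and resembles it most in coding sequence, stood at 290, 319 and 0 RPKM in conF1-F against 327, 316 and 376 RPKM in iAsF1-F. The livers above 0 overlapped, and with the 0 as missing limma gave a log2 fold change of 0.16 (SE 0.11 and adjusted p = 0.879). In conF1-F replicate 3, where Serpina3m was at 0, Serpina3k had its highest value. The sum of Serpina3k, Serpina3m and Serpina3n was 1597, 1607 and 2045 RPKM in conF1-F and 1608, 1848 and 2270 RPKM in iAsF1-F, a ratio of means of 1.09 with overlapping groups.

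Serpina3n (ENSMUSG00000021091), an inhibitor of granzyme B in the mouse that is induced in the acute phase response, was the least abundant of the Serpina3 genes in every liver where all 3 had a value. It stood at 118, 87.7 and 61.2 RPKM in conF1-F against 93.4, 69.6 and 80.3 RPKM in iAsF1-F. The iAsF1-F values lay inside the conF1-F range. The means were 88.9 ± 28.4 and 81.1 ± 11.9 RPKM (SD, n = 3), with a log2 fold change of −0.09 (SE 0.26, 95% interval −0.74 to 0.56, adjusted p = 0.977 from limma). With 1 liver left out it ran from −0.33, without conF1-F replicate 3, to 0.14, without conF1-F replicate 1. The ratio of Serpina3k to Serpina3n ran from 10.1 in conF1-F replicate 1 to 32.4 in conF1-F replicate 3, so both ends of the range came from the control group.

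**Figure D4:**
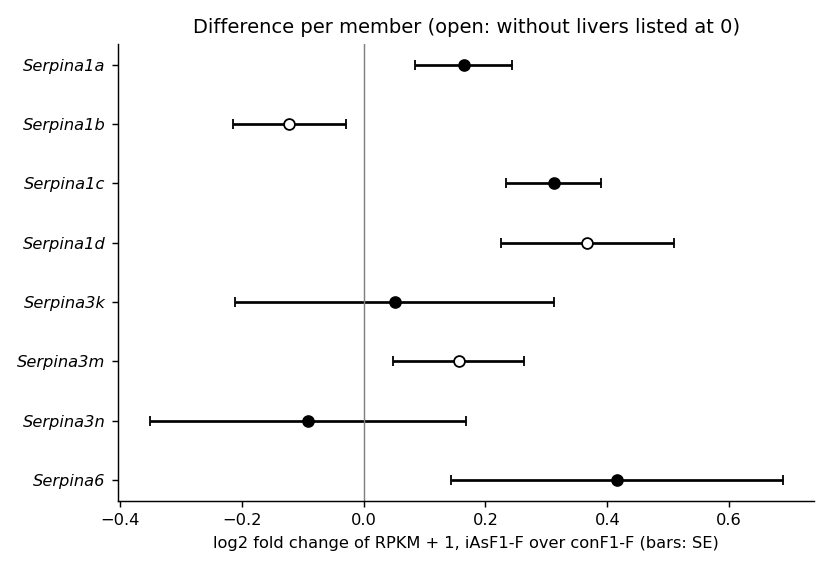
Log2 fold change of RPKM + 1 (x axis, iAsF1-F over conF1-F, bars give the SE from limma) of 8 members. Filled points are members never at 0, with all 6 livers, and open points leave out livers listed at 0. Serpina1e and Serpina10, with 1 conF1-F liver above 0, are not drawn. Serpina1c lies at 0.31 and Serpina3n at −0.09, and no member passed the adjusted threshold.

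The acute phase proteins, to which Serpina3n belongs in the mouse, were read as a list of other genes. Of 18 tested, 1 had a log2 fold change above 0 (Crp), against 49.7% of all tested genes. The median was −0.19, against 0.00 to 2 decimals for all tested genes, and none passed the adjusted threshold. At an unadjusted p under 0.05, 2 were lower in iAsF1-F. Lcn2, an iron-siderophore binding protein, stood at 19.7, 12.7 and 5.14 RPKM in conF1-F against 3.08, 3.72 and 2.39 RPKM in iAsF1-F (log2 fold change −1.58, unadjusted p = 0.0174, adjusted p = 0.877 from limma). Cp, the ferroxidase ceruloplasmin, had a log2 fold change of −0.43 (unadjusted p = 0.0321). The summed level of the list was 8496, 7270 and 5692 RPKM in conF1-F and 6550, 5784 and 6192 RPKM in iAsF1-F. Saa1 of this list stood at 55.0 RPKM in conF1-F replicate 1 and at 0.00734 to 0.0415 RPKM in the other livers, so 1 liver set its difference. The liver with the highest sum, conF1-F replicate 1, also had the highest Serpina3n, and the liver with the lowest sum, conF1-F replicate 3, had the lowest Serpina3n.

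Serpina6 (ENSMUSG00000060807) stood at 143, 169 and 83.9 RPKM in conF1-F against 184, 171 and 155 RPKM in iAsF1-F. The groups overlapped through conF1-F replicate 2, and the low conF1-F replicate 3 set most of the difference. The means were 132 ± 43.9 and 170 ± 14.7 RPKM (SD, n = 3), a 1.29-fold difference with a log2 fold change of 0.42 (SE 0.27, 95% interval −0.27 to 1.10, adjusted p = 0.877 from limma). Without conF1-F replicate 3 the log2 fold change was 0.12. Of 6 tested genes that make, clear or respond to glucocorticoids, 5 had a log2 fold change above 0 and none passed. Of the 6, 1 was listed at 0 in some liver. Akr1d1, a steroid reductase of the liver, stood at 32.5, 36.4 and 31.4 RPKM in conF1-F against 42.2, 41.2 and 39.0 RPKM in iAsF1-F (unadjusted p = 0.0147, adjusted p = 0.877 from limma). Dusp1, a phosphatase induced by glucocorticoids, was low, at 0.310 to 1.27 RPKM in conF1-F and 1.46 to 2.76 RPKM in iAsF1-F (unadjusted p = 0.0270). Tsc22d3, also induced by glucocorticoids and named after its values were seen, stood at 13.4, 20.9 and 25.6 RPKM in conF1-F against 13.5, 13.4 and 16.7 RPKM in iAsF1-F, with a log2 fold change of −0.40.

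Serpina10 (ENSMUSG00000061947) had a value in 2 livers only, 54.7 RPKM in conF1-F replicate 1 and 27.6 RPKM in iAsF1-F replicate 3. The other 4 livers were listed at 0. No difference is read from these values, and the fit that keeps the 0s (adjusted p = 0.999 from limma) is set by them. Of 6 tested genes of the protein Z system, 5 had a log2 fold change above 0, and 1 passed, F11, which encodes coagulation factor XI. The count rests partly on 0s, since 2 of the 6 were listed at 0 in some liver. F7 of this list was at 0 in conF1-F replicate 2 and at 36.4 to 46.7 RPKM in the other livers. F11 was listed at 0 in all conF1-F livers and at 6.43, 9.48 and 7.94 RPKM in iAsF1-F (adjusted p = 0.00497 from limma), and the call rests on those 0s. Among other clade A serpins, Serpina11 was at 0 in all conF1-F livers and at 28.4, 0 and 30.2 RPKM in iAsF1-F, and Serpina7, which encodes thyroxine-binding globulin, was above 0 only in conF1-F replicate 1, at 9.76 RPKM. Of 5 other tested serpins of plasma and liver, 2 had a log2 fold change above 0 and none passed, and 1 of the 5 was listed at 0 in some liver.

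Promoters of RefSeq (GRCm38.p6, 250 bases before to 50 after the start) were found for 6 of the 10 members, the 5 Serpina1 copies and Serpina3n. Those of Serpina1a to Serpina1d were 85.2% to 91.4% identical over their 6 pairs, whereas the 4 pairs with Serpina1e were 63.3% to 69.3% identical. The promoter of Serpina3n was searched on both strands for the STAT motif TTCNNNGAA, which 8.30% of the 32851 promoters of this length hold, and for its form with 4 bases between the arms, which 6.95% hold. It held neither. Of 12 tested genes for hepatocyte transcription factors, 6 had a log2 fold change above 0 and none passed. Of the 12, 4 were listed at 0 in some liver, so the count rests partly on 0s. Nr5a2, Foxa1 and Onecut1, all counted above 0, were among these 4. Cebpa stood at 124 ± 3.59 RPKM in conF1-F and 135 ± 2.55 RPKM in iAsF1-F (SD, n = 3, unadjusted p = 0.0449, adjusted p = 0.877 from limma). Foxa3 of the same list stood at 15.97, 11.6 and 14.6 RPKM in conF1-F against 8.98, 0 and 8.62 RPKM in iAsF1-F (adjusted p = 0.877).

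A secreted serpin must fold and leave the endoplasmic reticulum, and 23 genes of this path were tested. Of these, 11 had a log2 fold change above 0, with a median of 0.00 to 2 decimals, and none passed in either direction. The 9 tested genes of IL-6 and STAT3 signalling, which drives acute phase serpins, had 5 above 0 and none that passed. Of the 9, 4 were listed at 0 in some liver, Rela and Lifr of the 5 among them, so this count too rests partly on 0s. Of 6 tested target proteases, 3 were above 0 and F11 alone passed, and 2 were listed at 0 in some liver, F11 among them. Neutrophil markers, from the cells that release elastase, summed to 0 to 7.19 RPKM in conF1-F and 0 to 2.41 RPKM in iAsF1-F, with 1 of them above the filter.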

How the data were processed

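Liver mRNA of 3 conF1-F and 3 iAsF1-F mice was measured by RNA-seq. The authors deposited RPKM values, scaled to transcript length and library reads. STAR 2.5.3a, HTSeq and mm10 appear in the processing notes of the submitters, and the program behind the RPKM values is not given in the sources used here. The single tables and the series table were equal in 105744 cells, and 13 cells shown as dates, none of a member, were converted back. Serpina1b has 7 decimals in iAsF1-F replicates 1 and 3, against at most 6 elsewhere among the members, and may be a mean of entries there. Genes averaging 1 RPKM or more were compared as log2(RPKM + 1), which understates changes of low genes, by limma 3.58.1 (R 4.3.3, variance trend, Benjamini-Hochberg, threshold 0.05). The fit was tried on simulated data, with changes only in genes never at 0 and larger than those of the members never at 0. That trial therefore does not cover members with a 0 or changes as small as these. Depth was estimated from the RPKM value of 1 read. Sequences came from GENCODE and RefSeq. Named were all members, list genes past the threshold, other clade A serpins, and otherwise the 2 genes of smallest p per list, where the text needed them. The remaining hepatocyte markers, Crp, Saa1 and Tsc22d3 were named beyond this rule, with their values known. The members and lists were chosen with earlier results of these data known. Alternatives were pseudocount, filter, scaling, robust fit, replicate block and each liver left out. Treating 0s as missing and removing genes with a 0 were chosen after seeing the data.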

Additional observations from a re-analysis of the deposited data

How the results depend on the processing

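No member passed the adjusted threshold under any alternative run. Of all genes, 16 were called, against 1 with a minimum mean of 5 RPKM, 0 with the replicate block, 5 with 0s as missing, 5 with genes holding a 0 removed, and 28 to 40 with 1 liver left out. After the group mean of each gene was taken away, the log2 levels of same-numbered livers correlated at −0.07, 0.02 and 0.01. Those of livers with unlike numbers correlated at −0.07 to 0.06, so the numbers were not taken as pairs. With the replicate block 2 members had an unadjusted p under 0.05 (4.36% of all genes), against 1 without it. With 0s treated as missing 2 had (5.71% of all genes), but Serpina1e then rests on 1 conF1-F liver, assumed to vary like the others, and is not read as a result. Members whose groups did not overlap numbered 3 to 5 with 1 liver left out, where 605 to 709 of all 6448 genes were separated higher in iAsF1-F, against 376 with every liver. Serpina1b turned to −0.12 on the log2 scale without conF1-F replicate 3 and with 0s as missing. With 1 liver left out, the log2 fold change ran from −0.12 to 4.91 for Serpina1b, −0.10 to 0.29 for Serpina3k, −0.33 to 0.14 for Serpina3n, −1.93 to 1.61 for Serpina10, 0.10 to 0.21 for Serpina1a, 0.25 to 0.38 for Serpina1c and 0.12 to 0.62 for Serpina6. Those of Serpina1b and Serpina10 are set by values of 0, and no size is read from them. The ratio of summed Serpina3 levels ran from 0.988, without iAsF1-F replicate 3, to 1.19, and that of summed Serpina1 levels from 1.20 to 1.51. The cause was not tested. Scalings moved the median of all genes by at most 0.03. Behind the values above 0 stood about 1593 to 61539 reads per member and liver.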

Other observations

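Over the 6 livers, the genes never listed at 0 whose log2 levels ran most like Serpina3n, of 5182 searched, were Gm12599 (Pearson r = 0.97), AW112010 (r = 0.97) and Map1lc3b (r = 0.97). Map1lc3b encodes an autophagy protein. For the summed Serpina1 copies they were Gnas (r = 0.98), which encodes a G protein alpha subunit, Zmynd11 (r = 0.98) and 1810058I24Rik (r = 0.97). These are descriptions over 6 libraries, with no p, and the sum follows the 0s of conF1-F replicate 3.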
